A study of Mus musculus with 4 samples.

Results

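The Ly6 surface protein family was described here through 7 mouse genes, Ly6a, Ly6c1, Ly6c2, Ly6d, Ly6e, Ly6g and Ly6i, which were taken by symbol from the 32285 genes of the count tables. The genes were picked with earlier results of these data known, so their differences between genotypes are a description. Ly6 proteins are small proteins with a cysteine-rich domain, most of them held in the outer membrane by a glycosylphosphatidylinositol (GPI) lipid anchor. Several of them are standard flow cytometry markers of mouse leukocytes: Ly6C (Ly6c1 and Ly6c2) for inflammatory monocytes, Ly6G for neutrophils, and Sca-1 (Ly6a) for stem cells and for activated lymphocytes. Sca-1 and Ly6C are also known to be induced by interferons in many cell types.

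Single cell RNA was read from B16-F10 melanomas and spleens of male C57BL/6 mice, which were 8 weeks old, wild type (WT) or Ndufa4-deficient (KO), and sampled on day 18 after the tumour cells had been placed under the skin. Live CD45+ immune cells were sorted from tumours and CD45+ CD11b+ cells from spleens, so the 2 organs differ in the sort as well as in the tissue. Cells of 3 mice were pooled in equal numbers into 1 library for each organ and genotype, which gives 4 libraries, no replicate and no test between genotypes. Ndufa4 encodes a subunit tied to complex IV of the respiratory chain. The labels do not say which cells carry the deletion, and the injected melanoma cells are the same line in both genotypes.

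After filtering, 3839 tumour WT, 4370 tumour KO, 7009 spleen WT and 6471 spleen KO cells remained, with median depths of 7011, 10130, 4610 and 4266 unique molecular identifiers (UMIs, 1 per captured RNA molecule) per cell. The 4 libraries held between 46499361 and 63560706 UMIs. Between 6 and 22 cell barcodes were shared by any 2 libraries. Cells were clustered within each organ without the Ly6 and interferon genes, and clusters were named from marker lists that hold no Ly6 gene, so every class name means cells like that type. The labelled sorts were checked against these markers. The spleen CD11b+ sort was not myeloid alone: it held 1237 WT and 2433 KO NK cells. It also held 181 WT and 244 KO B cells and 75 WT and 197 KO T cells. The tumour CD45+ sort held 55 WT and 23 KO melanoma cells. The level of a gene in a class is its share of all UMIs summed over that class, given as counts per 1000000 UMIs (CPM). Ndufa4 itself checked the genotype labels, at 279 CPM in WT and 6.86 in KO tumour mononuclear phagocytes, and at 312 in WT and 0.344 in KO spleen classical monocytes. It was lower in KO in every compared class, lymphocytes included, such as tumour CD8 T cells (420 and 2.93 CPM) and spleen T cells (260.5 and 0 CPM). The highest KO levels were in tumour B cells (167 and 21.7 CPM) and tumour migratory dendritic cells (105 and 11.5 CPM). The kit reads the 3′ end of each RNA, so levels need no correction for gene length. Ratios are given as log2(KO/WT) with a 95% interval in brackets that covers counting error and leaves out any variation among mice.

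All 7 genes lie on mouse chromosome 15 (GRCm38, GENCODE M21), within 397.1 kb. Ly6d stands apart at chr15:74762056-74763620 on the minus strand. The other 6 are neighbours within 204.1 kb: Ly6e at chr15:74955051-74959905 (plus strand), Ly6i at chr15:74979534-74983430 (minus), Ly6a at chr15:74994877-74998031 (minus), Ly6c1 at chr15:75044018-75048830 (minus), Ly6c2 at chr15:75108158-75111970 (minus) and Ly6g at chr15:75155240-75159126 (plus). From Ly6e to Ly6g no other protein-coding gene of the annotation intervenes. The transcripts of Ly6a, Ly6c1, Ly6c2, Ly6g and Ly6i are alike. Those of Ly6e and Ly6d are less so: over the last 400 bases, Ly6e matches the other members at 59.4% to 61.3% and Ly6d at 60.8% to 66.8%. The longest coding transcripts of Ly6c1 and Ly6c2 match at 97.6% of aligned bases and share 19.1% of the 60-base words in their last 400 bases, so a part of their reads cannot be assigned to 1 of the 2 genes. Ly6a matches Ly6c1 at 86.2% and Ly6g at 84.5%, but no 60-base word near its 3′ end occurs in another gene, and the same holds for Ly6d, Ly6e and Ly6g. Ly6i shares 2.35% of such words with I830127L07Rik.

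Ly6c1, Ly6c2 and Ly6g are adjacent and similar in sequence, and their sets of classes below differ in part: Ly6c1 was low and highest in T cells, Ly6g was highest in neutrophils, and Ly6c2 was high in monocytes, plasmacytoid dendritic cells, T cells and also the immature neutrophils that had the most Ly6g. For this reason the 250 bases before their first listed start sites are shown, from RefSeq (GRCm38.p6). Promoters of 3 of the 7 members were found in the table used. The windows are chr15:75048838-75049087 (minus strand) for Ly6c1, chr15:75111972-75112221 (minus) for Ly6c2 and chr15:75155011-75155260 (plus) for Ly6g. Capitals mark TATAAA in the windows of Ly6c1 and Ly6g, its variant TATACA in that of Ly6c2, and GAGGAAGT, which contains the core of ETS family sites; these words were picked after the sequences were seen.
Ly6c1: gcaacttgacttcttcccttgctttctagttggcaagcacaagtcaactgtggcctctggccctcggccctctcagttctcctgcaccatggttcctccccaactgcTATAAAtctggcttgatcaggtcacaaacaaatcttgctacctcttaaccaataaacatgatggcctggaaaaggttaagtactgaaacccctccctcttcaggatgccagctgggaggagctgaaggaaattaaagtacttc
Ly6c2: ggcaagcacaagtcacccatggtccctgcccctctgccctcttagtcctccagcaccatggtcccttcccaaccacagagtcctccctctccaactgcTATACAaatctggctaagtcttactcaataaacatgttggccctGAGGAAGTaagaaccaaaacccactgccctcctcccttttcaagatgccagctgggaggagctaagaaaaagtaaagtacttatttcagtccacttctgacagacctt
Ly6g: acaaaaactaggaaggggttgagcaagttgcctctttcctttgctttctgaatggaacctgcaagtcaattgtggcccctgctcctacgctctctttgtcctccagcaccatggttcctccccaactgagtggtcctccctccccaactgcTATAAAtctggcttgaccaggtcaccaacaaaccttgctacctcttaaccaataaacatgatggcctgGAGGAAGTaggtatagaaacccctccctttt
The aligned bases of the windows are identical at 83.5% between Ly6c1 and Ly6g, at 80.3% between Ly6c2 and Ly6g and at 75.9% between Ly6c1 and Ly6c2. With gaps counted, identical bases made up 68.8% for Ly6c1 and Ly6g, 55.6% for Ly6c2 and Ly6g and 65.6% for Ly6c1 and Ly6c2, so the order of the last pairs depends on the measure. TATAAA is present in the Ly6c1 and Ly6g windows, and Ly6c2 has TATACA. Over both strands of 32851 windows of the same length, 12.4% hold TATAAA, 6.84% TATACA and 2.44% GAGGAAGT. GAGGAAGT is found at position -108 from the start in Ly6c2 and at -31 in Ly6g, and not in this Ly6c1 window, although the window of the second start listed for Ly6c1 holds it at -127. TTCNNNGAA, the palindrome read by STAT factors, matches none of the 3 windows; it occurs in 7.02% of all windows.

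In all, 12 tumour classes and 10 spleen classes had at least 50 cells in both libraries, and a gene was compared in a class where both libraries together held at least 20 of its UMIs. In the tumour 48 of 84 gene and class pairs passed this minimum. By the limit of 1.5-fold used throughout, 23 of them were higher in KO and 3 lower, against 11.4% of all gene and class pairs higher and 10.7% lower. In the spleen 44 of 70 pairs passed, of which 12 were higher and 4 lower, against 6.35% and 7.62% of all pairs. Ly6a and Ly6i made up 14 of the 23 higher tumour pairs, Ly6c2 5 and Ly6e 2. The heat map of levels shows that each gene had its own set of cell classes, and that this set was the same in both genotypes for the highest classes of Ly6d, Ly6g and Ly6a.

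**Figure D1:**
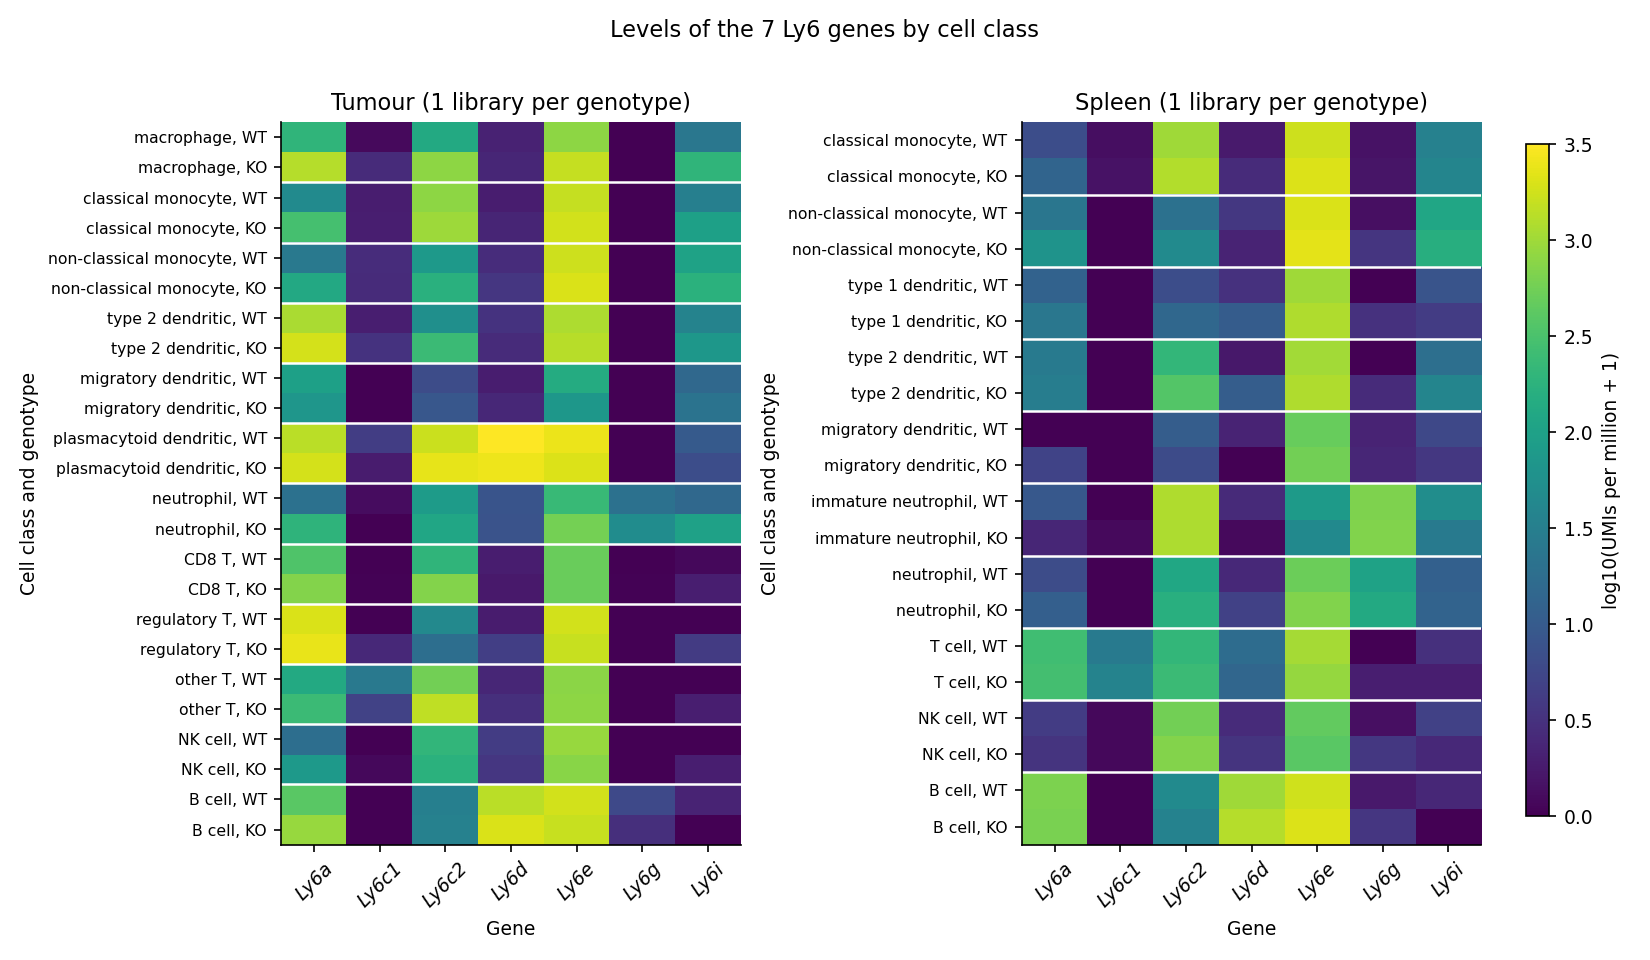
Levels of the 7 genes, as log10(CPM + 1), in the 12 tumour classes (left) and 10 spleen classes (right), with a WT and a KO row for each class and 1 library behind each row. Ly6e is bright in nearly every row, Ly6d in B cells and plasmacytoid dendritic cells, Ly6g in neutrophils and Ly6a in tumour more than spleen myeloid rows.

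Ly6a encodes Sca-1. In tumour macrophages its level was 196 CPM in WT and 1289.9 in KO, a log2 ratio of 2.72 [2.66, 2.77]. The median macrophage had no Ly6a UMI in WT and a level of 788 CPM in KO, and after each cell was thinned to 1000 UMIs the share of macrophages with a Ly6a UMI was 10.1% in WT and 49.6% in KO. The same direction was measured in classical monocytes, from 45.7 to 289 CPM (2.66 [2.25, 3.097]), and in non-classical monocytes, from 25.3 to 128 CPM (2.33 [1.75, 2.96]). Over these 3 classes together, the mononuclear phagocytes, Ly6a stood at 178 CPM in WT and 964 in KO (2.44 [2.38, 2.49]), rank 76 from the highest of 12157 genes measured. With the levels of 5 clusters weighted by their numbers of WT cells, the ratio was 2.19. This weighting, also used below, replaces summed UMIs, so it changes the measure as well as the mix. The unweighted ratio was 1.76 with the Ly6 and interferon genes allowed in the clustering.

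Ly6a was higher in KO in 9 of the 12 tumour classes and lower in none at the 1.5-fold limit. Neutrophils had the largest ratio, with 19.1 CPM in WT and 186 in KO (3.29 [2.84, 3.75]), followed by macrophages and classical monocytes, whose intervals overlap with each other. NK cells stood at 17.2 and 76.2 CPM (2.15 [1.43, 2.97]). CD8 T cells (346 and 711 CPM, 1.04), B cells (397 and 908 CPM, 1.195), other T cells of no named subset (132 and 244 CPM, 0.88) and type 2 dendritic cells (1139.7 and 1894.7 CPM, 0.73) also passed the limit. After thinning to 1000 UMIs the values of NK cells (0.35), other T cells (0.50) and type 2 dendritic cells (0.58) were within the limit, and with equal weight for each cell so was that of type 2 dendritic cells (0.54). The ratio of classical monocytes was 1.56 under a gate on each cell's own markers, that of non-classical monocytes 1.545 with another clustering seed and that of B cells 1.86 at Leiden resolution 0.5. The CD8 T, B and type 2 dendritic classes and the other T class had higher WT levels and smaller ratios than the monocytes and neutrophils. Macrophages departed from this order, with 196 CPM in WT, more than the other T class, and a ratio of 2.72. So did migratory dendritic cells, with 97.4 CPM in WT, less than the other T class, and a ratio of -0.50.

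The tumour classes with the most Ly6a in WT had small ratios. Regulatory T cells, which restrain other T cells, had the highest level in both libraries, 1986 CPM in WT and 2398 in KO (0.27 [0.20, 0.34]). Plasmacytoid dendritic cells, specialists in type I interferon release, had 1384 and 1870.1 CPM (0.43 [0.33, 0.54]). Migratory dendritic cells were the only compared tumour class with a lower point value in KO, 97.4 and 68.8 CPM (-0.50 [-0.91, -0.09]), within the 1.5-fold limit. The 43 WT type 1 dendritic cells and the 40 WT CD4 T cells were too few to be compared; their Ly6a levels were 101 CPM in WT and 167 in KO, and 947 in WT and 1458.5 in KO.

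**Figure D2:**
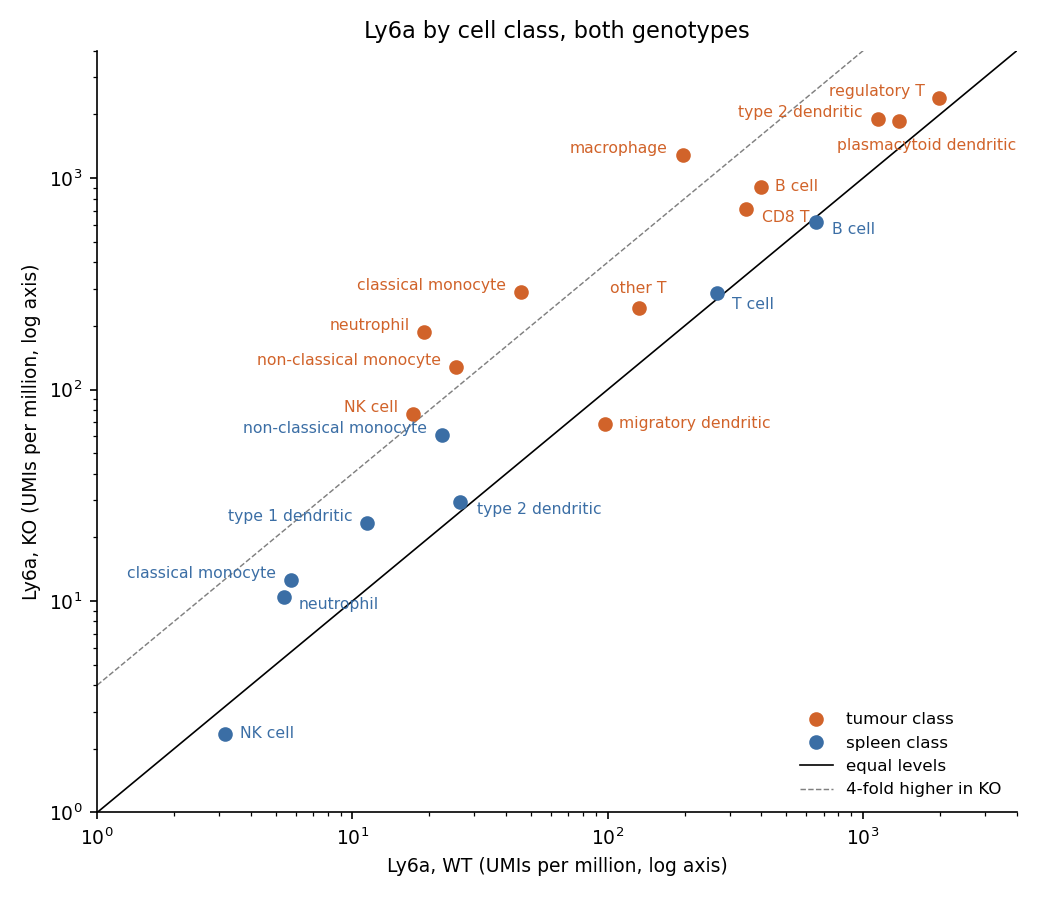
Ly6a level in WT (x axis) and in KO (y axis), in CPM on log axes, with 1 point for each compared class of tumour (orange) or spleen (blue); the solid line marks equal levels and the dashed line 4-fold. Tumour neutrophils, monocytes and macrophages lie on or above the dashed line, while regulatory T cells, plasmacytoid dendritic cells and the spleen B and T cells lie near the solid line.

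Within the phagocytes the Ly6a difference was present in each of the 5 clusters with at least 50 cells in both libraries. It was 1.85 in the Cxcl9 and C1qb cluster (409 CPM in WT, 1475 in KO), 2.47 in the Arg1 and Thbs1 cluster (90.6 and 503 CPM), 2.72 in the C1qa and Apoe cluster (117 and 772 CPM), 2.46 in the larger classical monocyte cluster and 2.33 in the non-classical cluster. The C1qa and Apoe cluster also differed in depth, with medians of 9518 UMIs per cell in WT and 4145 in KO. The part of depth in its ratio was not tested. The Arg1 cluster held 576 WT and 96 KO cells and the Cxcl9 cluster 293 WT and 384 KO cells, so the mix of clusters differed between the libraries. In CD8 T cells, the ratio was between 0.63 and 1.39 in the 5 subclusters with at least 20 cells in both libraries. Over these it was 1.02 with subcluster levels weighted by WT cell numbers. Subclusters 4, 7 and 13, with 5, 6 and 4 WT cells against 252, 169 and 16 KO cells, were left out. Ly6a was lower in KO in subcluster 7, 913 and 665 CPM (-0.46 [-0.73, -0.17]), and higher in subclusters 4 (0.63) and 13 (1.38).

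In the spleen Ly6a was scarce in myeloid cells. Classical monocytes had 5.72 CPM in WT and 12.5 in KO (1.13 [0.73, 1.52]), non-classical monocytes 22.4 and 61.2 CPM (1.45 [1.12, 1.78]), and neutrophils 5.41 and 10.5 CPM (0.96 [0.23, 1.69]). A Ly6a UMI was seen in 5.43% of WT and 8.08% of KO classical monocytes. After thinning to 1000 UMIs these shares were 0.423% and 1.14%, against 0.167% in the NK cells of both spleen libraries. Spleen B cells (653 and 621 CPM, -0.07 [-0.20, 0.06]) and T cells (269 and 287 CPM, 0.10 [-0.20, 0.40]) had high levels in both libraries, and their intervals include 0. Type 1 dendritic cells were the fourth spleen class past the limit, on 16 WT and 22 KO UMIs (1.04 [0.04, 2.07]), and within it with equal weight for each cell (0.15).

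Ly6i, the gene between Ly6e and Ly6a, was read in myeloid cells. In tumour macrophages it stood at 23.7 CPM in WT and 195 in KO (3.04 [2.89, 3.20]), in classical monocytes at 31.3 and 96.8 CPM (1.63 [1.12, 2.18]), and in neutrophils at 14.2 and 98.2 CPM (2.80 [2.22, 3.37]). Type 2 dendritic cells (35.9 and 69.7 CPM, 0.96 [0.63, 1.30]) and non-classical monocytes (101 and 169 CPM, 0.74 [0.40, 1.08]) were also higher in KO, which makes 5 of the 6 tumour classes measured. Type 2 dendritic cells were within the limit with equal weight for each cell (0.44) and non-classical monocytes after thinning (0.28). With another clustering seed the ratio was 2.26 in macrophages and 2.62 in classical monocytes, and with the doublets kept 4.18 and 2.76. Within the macrophages it was 2.42 in the Cxcl9 cluster and 2.395 in the Arg1 cluster. The C1qa and Apoe cluster had 3.33 [1.87, 4.91], on 7 WT and 12 KO UMIs. With clusters weighted by WT cell numbers, the Ly6i ratio over all mononuclear phagocytes was 2.01, against 2.58 from summed UMIs. Lymphoid classes held between 0 and 18 Ly6i UMIs each in the tumour. Among WT classes the highest levels were in non-classical monocytes, 101 CPM in tumour and 116 in spleen, and the interval of their log2 ratio (-0.20 [-0.49, 0.09]) includes 0.

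In the spleen Ly6i was higher in 1 class, lower in 2 and within the limit in 3. Classical monocytes had 33.7 CPM in WT and 38.2 in KO (0.18 [-0.01, 0.37]) and non-classical monocytes had 116 and 157 CPM (0.43 [0.26, 0.61]), both within the limit. Type 2 dendritic cells were higher in KO, 18.1 and 37.7 CPM (1.06 [0.60, 1.51]), a ratio like that in the tumour, but it was -0.0181 with the marked doublets kept and 0.0132 at Leiden resolution 2.0. Immature neutrophils were lower in KO, 50.8 and 26.3 CPM (-0.95 [-1.53, -0.33]), on 31 UMIs of 51 WT cells, beside 346 KO cells. NK cells were lower too, on 20 WT and 16 KO UMIs (-1.25 [-2.30, -0.23]). No test of the difference between organs was possible with 1 library each.

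In single tumour macrophages Ly6a and Ly6i were seen in the same cells more often in KO. After thinning to 1000 UMIs, 4 of 1089 WT macrophages (0.367%) and 46 of 548 KO macrophages (8.39%) held both, where the product of the 2 shares gives 0.25% and 6.61%. Of the KO macrophages with a Ly6i UMI, 63% also had Ly6a, against 49.6% of all KO macrophages. Cells of 1 library are not replicates, so these shares describe the 2 libraries.

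**Figure D3:**
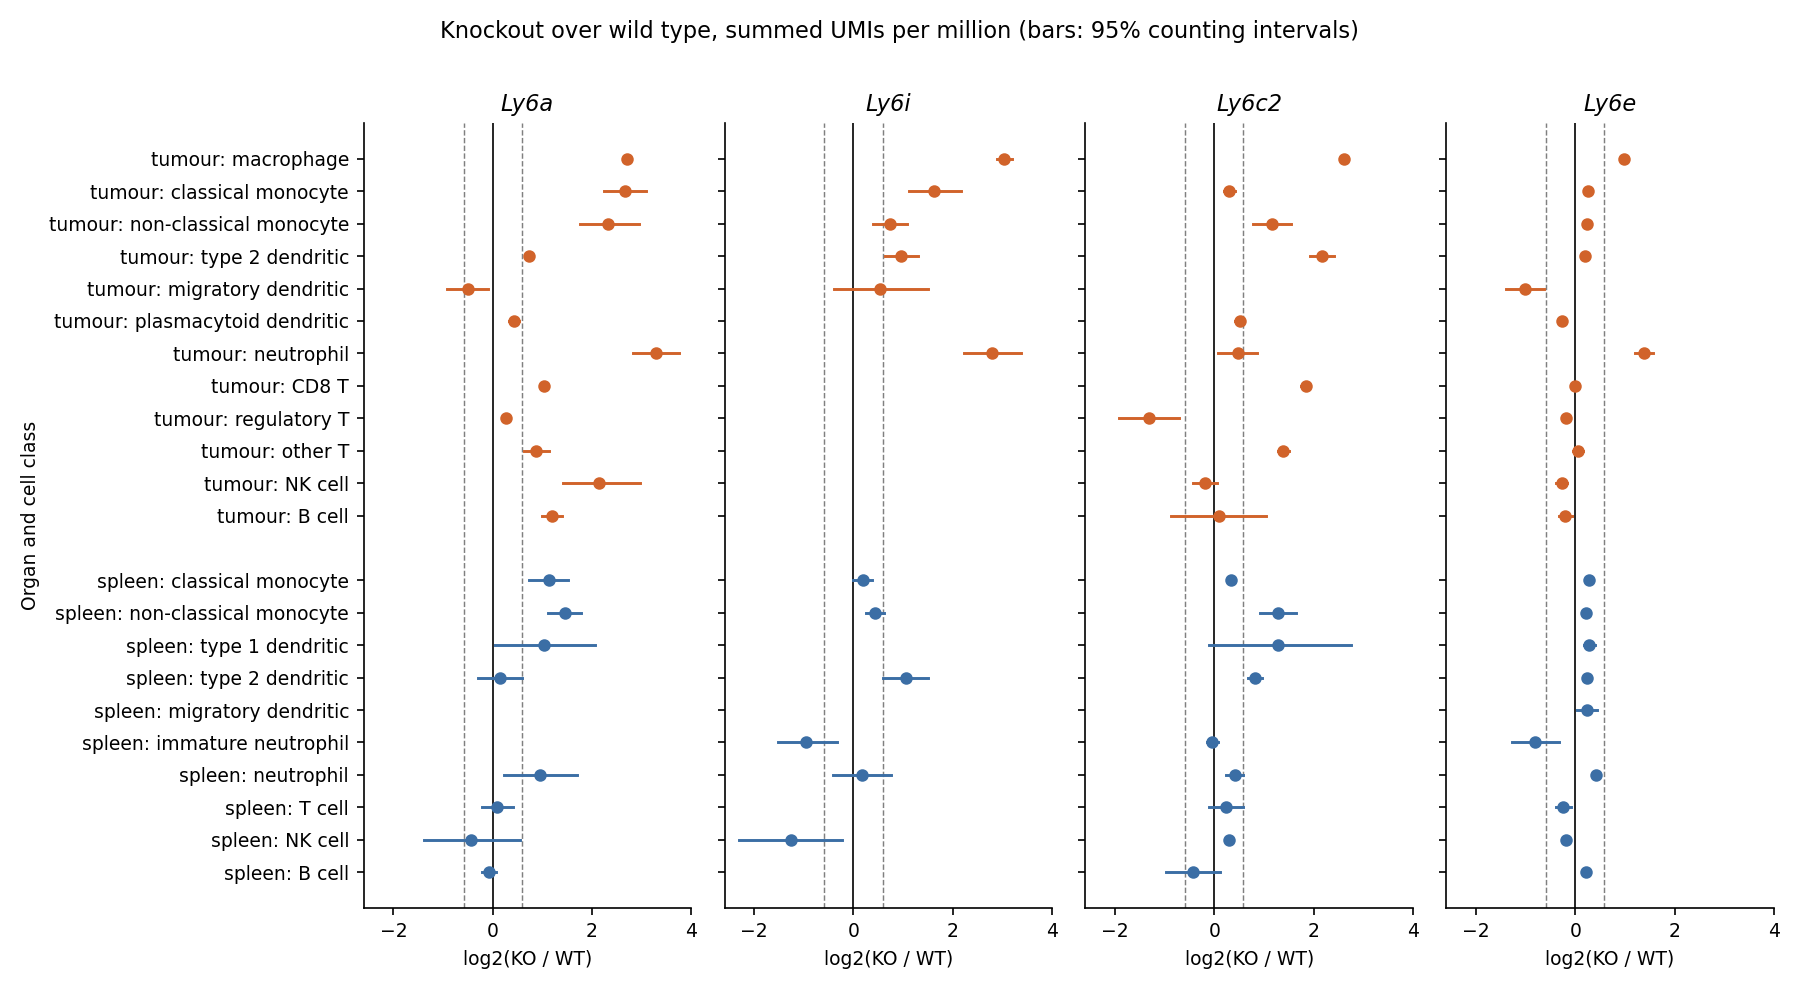
log2(KO/WT) of Ly6a, Ly6i, Ly6c2 and Ly6e (x axis) in each tumour class (orange) and spleen class (blue) where the gene passed the minimum of 20 UMIs; horizontal lines are 95% counting intervals and dashed lines mark 1.5-fold. Ly6a lies right of 0 in 11 of 12 tumour classes, Ly6i in all 6 measured, and Ly6e within the dashed lines in 9 of 12.

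Ly6c2 encodes most of the Ly6C antigen on blood monocytes. Its highest levels were in tumour plasmacytoid dendritic cells, 1634.5 CPM in WT and 2323 in KO (0.51 [0.42, 0.60]), followed by KO tumour cells of the other T class and spleen monocytes. Spleen classical monocytes had 993 and 1245.5 CPM (0.33 [0.29, 0.36]) and tumour classical monocytes 798 and 984 CPM (0.30 [0.19, 0.41]), all within the 1.5-fold limit. Immature neutrophils of the spleen were as high, 1216 and 1181.5 CPM (-0.04 [-0.15, 0.07]). The largest Ly6c2 ratio in the tumour was that of macrophages, with 134 CPM in WT and 816 in KO (2.61 [2.54, 2.68]; 3.20 under the gate and 4.39 with the doublets kept). It was 2.04 in the Cxcl9 cluster and 2.38 in the Arg1 cluster, and 0.94 [0.06, 1.75] in the C1qa and Apoe cluster, where the level was low in both libraries (13.6 and 26 CPM). With clusters weighted by WT cell numbers, the Ly6c2 ratio over all mononuclear phagocytes was 1.82, against 2.25 from summed UMIs. The share of macrophages with a Ly6c2 UMI after thinning was 9.09% in WT and 41.6% in KO.

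The sum of classical monocyte markers was also higher: the 8 listed markers, none of them a Ly6 gene and none at 0, summed to 4570 CPM in WT and 6957 in KO macrophages. The 11 macrophage markers summed to 13670 and 9340 CPM. Such sums do not give the direction of each marker, and the part of these markers in the Ly6c2 difference was not tested. Non-classical monocytes, which are defined by low Ly6C, had 74.3 CPM in WT and 165 in KO in the tumour (1.16 [0.78, 1.54]) and 19.2 and 46.7 CPM in the spleen (1.29 [0.92, 1.65]). Type 2 dendritic cells were higher in KO in both organs, from 53.9 to 242 CPM in the tumour (2.17 [1.93, 2.42]) and from 209 to 368 CPM in the spleen (0.82 [0.68, 0.95]), where it was 0.47 with the doublets kept.

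On T cells Ly6C is a known mark of memory and effector states. CD8 T cells of the tumour had 195 CPM of Ly6c2 in WT and 698 in KO (1.84 [1.75, 1.93]), and the other T class 560 and 1466 CPM (1.39 [1.28, 1.502]). Within the 2 subclusters of the other T class, whose shares differed between the libraries (64 WT and 209 KO cells, and 137 WT and 32 KO cells), the ratios were 0.68 and 0.98, and under the gate on each cell's own markers the class ratio was 0.52, within the limit. The CD8 subclusters were unequal: the ratio was 0.63 [0.51, 0.76] in subcluster 0, which had the most Ly6c2 in both libraries (1133 and 1757 CPM), 1.75 to 1.97 in subclusters 1, 5 and 9, and 3.35 [2.92, 3.80] in subcluster 10. With subcluster levels weighted by WT cell numbers, without subclusters 4, 7 and 13 and their few WT cells, the CD8 ratio was 1.19. It was smaller than 1.84, which comes from summed UMIs, but above the 1.5-fold limit. These values differ in measure as well as in the mix of subclusters, and the parts were not separated. This weighting was chosen after the values were seen. After thinning, 15.6% of WT and 43% of KO CD8 T cells had a Ly6c2 UMI, and 3.83% and 24% had both Ly6a and Ly6c2, where the products of the shares are 4.13% and 20.9%.

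NK cells of the tumour had 198 CPM of Ly6c2 in WT and 173 in KO (-0.19 [-0.42, 0.04]), and those of the spleen 573 and 704 CPM (0.30 [0.24, 0.36]). In the larger tumour NK cluster (138 WT and 578 KO cells) Ly6c2 was lower in KO, 177 and 111 CPM (-0.67 [-0.93, -0.40]), past the limit. The smaller cluster held 8 WT and 136 KO cells, at 611 and 545 CPM (-0.17 [-0.72, 0.44]), so the mix of clusters differed between the libraries. Regulatory T cells had little Ly6c2, 44 CPM in WT and 17.6 in KO (-1.32 [-1.93, -0.72]). The UMIs lay in few cells: 3.45% of WT and 12.9% of KO regulatory T cells had a Ly6c2 UMI, and with equal weight for each cell the log2 ratio was 0.0741, and with the doublets kept -0.55. Under a gate on each cell's own markers it was 2.79. The direction in regulatory T cells thus differed between these settings.

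**Figure D4:**
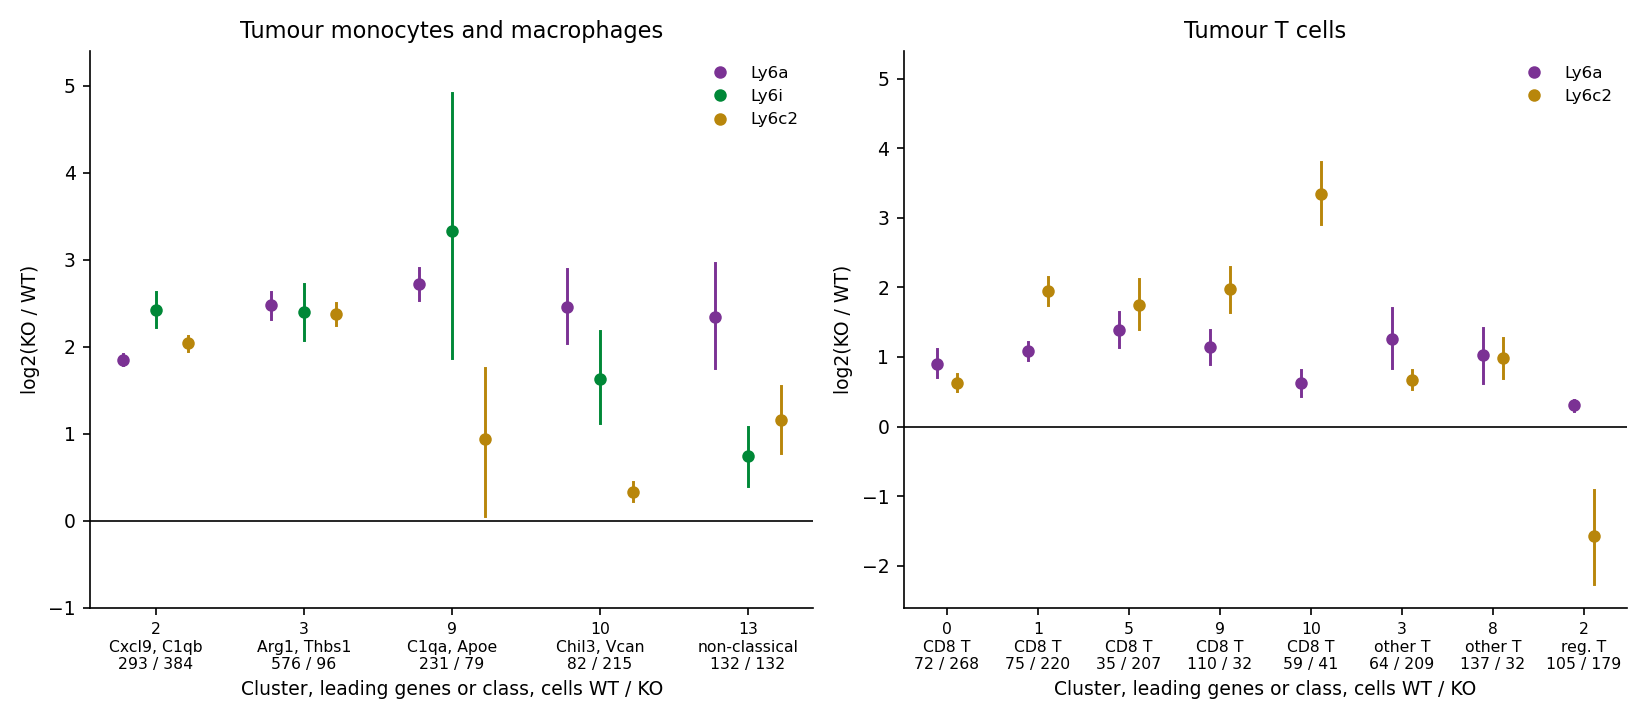
log2(KO/WT) with 95% counting intervals in single clusters of tumour monocytes and macrophages (left: Ly6a, Ly6i, Ly6c2) and subclusters of the compared T cell classes with at least 20 cells in both libraries (right: Ly6a, Ly6c2); the labels give cluster number, leading genes or class, and WT / KO cell numbers. Ly6a is above 0 in every cluster shown, and Ly6c2 ranges from -1.58 in the larger regulatory T subcluster to 3.35 in CD8 subcluster 10.

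Ly6c1, the near copy of Ly6c2, was rare: 52 UMIs in the whole tumour WT library, 66 in tumour KO, 28 in spleen WT and 55 in spleen KO. It was highest in T cells. Spleen T cells had 26.9 CPM in WT and 35.8 in KO (0.41 [-0.53, 1.45]). The tumour class of other T cells had 25.4 CPM in WT and 3.87 in KO (-2.71 [-4.03, -1.59]). Subcluster 8 of that class carried 36 of the 37 WT UMIs and all 8 KO UMIs. Within subcluster 8 the levels were 39.4 and 28.7 CPM (-0.46 [-1.77, 0.67]), and it held 137 WT and 32 KO cells, while subcluster 3, with 1 Ly6c1 UMI, held 64 WT and 209 KO cells. CD8 T cells had 0 Ly6c1 UMIs in WT and 1 in KO, beside 1095 and 13321 UMIs of Ly6c2. Macrophages had 4 and 16 Ly6c1 UMIs, beside 2357 and 7618 of Ly6c2, the gene with which a part of their reads cannot be told apart.

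Ly6e is best known as a factor that restricts coronavirus entry, and was read in every compared class. Its WT levels ran from 78.7 CPM in spleen immature neutrophils to 2476 CPM in tumour plasmacytoid dendritic cells. Spleen monocytes were close to the top, with 1696 CPM in WT and 2049 in KO classical (0.27 [0.25, 0.30]) and 1974.5 and 2299.5 CPM in non-classical monocytes (0.22 [0.18, 0.26]). In the tumour, 9 of 12 classes were within the limit, among them CD8 T cells at 497 and 495 CPM (-0.01 [-0.07, 0.05]).

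Tumour macrophages had 799 CPM of Ly6e in WT and 1577 in KO (0.98 [0.95, 1.01]). In the Cxcl9 cluster the ratio was 0.45, in the Arg1 cluster 0.75 and in the C1qa and Apoe cluster 1.25. With clusters weighted by WT cell numbers, the ratio over all mononuclear phagocytes was 0.60, against 0.91 from summed UMIs. Neutrophils of the tumour stood at 228 and 593 CPM (1.38 [1.19, 1.56]). Migratory dendritic cells were lower in KO, 142 and 70.2 CPM (-1.01 [-1.39, -0.64]), and spleen immature neutrophils 78.7 and 44.9 CPM (-0.81 [-1.27, -0.32]). With the doublets kept these values were -0.04 and -0.29, and with equal weight for each cell the second was -0.50, all within the limit. The spleen immature neutrophils numbered 51 in WT and 346 in KO. Of their 48 WT Ly6e UMIs, 29 lay in 9 cells of the smaller cluster (-1.43 [-2.07, -0.76]). The larger cluster, of 42 WT and 286 KO cells, had -0.18 [-0.88, 0.60].

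Ly6g encodes the neutrophil antigen that, with Ly6C, makes up Gr-1. Its level followed the maturity and place of the neutrophils: 672 CPM in WT and 696 in KO immature neutrophils of the spleen (0.05 [-0.10, 0.20]), 101 and 132 CPM in mature spleen neutrophils (0.38 [0.20, 0.56]), and 19.1 and 49.1 CPM in tumour neutrophils (1.37 [0.68, 2.02]). A Ly6g UMI was present in 96.1% and 92.5% of immature, 14% and 16.4% of mature spleen and 2.74% and 4.24% of tumour neutrophils, which also have different depths (medians of 10848, 2550 and 3490 UMIs in WT). After thinning to 1000 UMIs the WT shares were 42%, 5.86% and 1.18%, in the same order. Mononuclear phagocytes of the tumour held 0 Ly6g UMIs in both libraries, which allows up to 0.151 CPM in WT and 0.221 in KO.

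The Ly6g value of tumour neutrophils rested on 66 WT and 29 KO UMIs. The Retnlg and Lcn2 cluster had 59.5 CPM in WT and 165 in KO (1.48 [0.58, 2.39]) and held 99 of 1021 WT and 37 of 165 KO neutrophils, while the cluster led by S100a9 and Cxcl3 had 26.5 and 17.6 CPM (-0.59 [-2.92, 1.05]). Under the gate on each cell's own markers the Ly6g ratio was -0.19, and with equal weight for each cell 0.64. The 7 immature neutrophil markers summed to 722 CPM in WT and 4564 in KO tumour neutrophils, with 1 at 0 in each library; their part was not tested. Spleen NK cells showed 2 WT and 28 KO Ly6g UMIs, and the same immature neutrophil markers, none at 0, summed to 26.9 and 182 CPM there; their part in this value was not tested, and the Ly6g ratio there was 2.88, or 0.60 with the doublets kept.

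Tumour neutrophils differed broadly between the libraries: 34.5% of 7542 genes passed the limit in the higher direction, and scaling to the median ratio of genes removed a log2 shift of 0.49. On that scale the values were 2.80 for Ly6a, 2.30 for Ly6i, 0.89 for Ly6e, 0.87 for Ly6g and -0.01 for Ly6c2. The 6 T cell markers in this class summed to 49.4 CPM in WT and 169 in KO, the 8 NK cell markers to 14.7 and 93.1 CPM, and the 8 classical monocyte markers to 162 and 516.5 CPM, on 165 KO cells; 1 NK cell marker was at 0 in WT and no other of these. Their part in the Ly6 values of neutrophils was not tested.

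**Figure D5:**
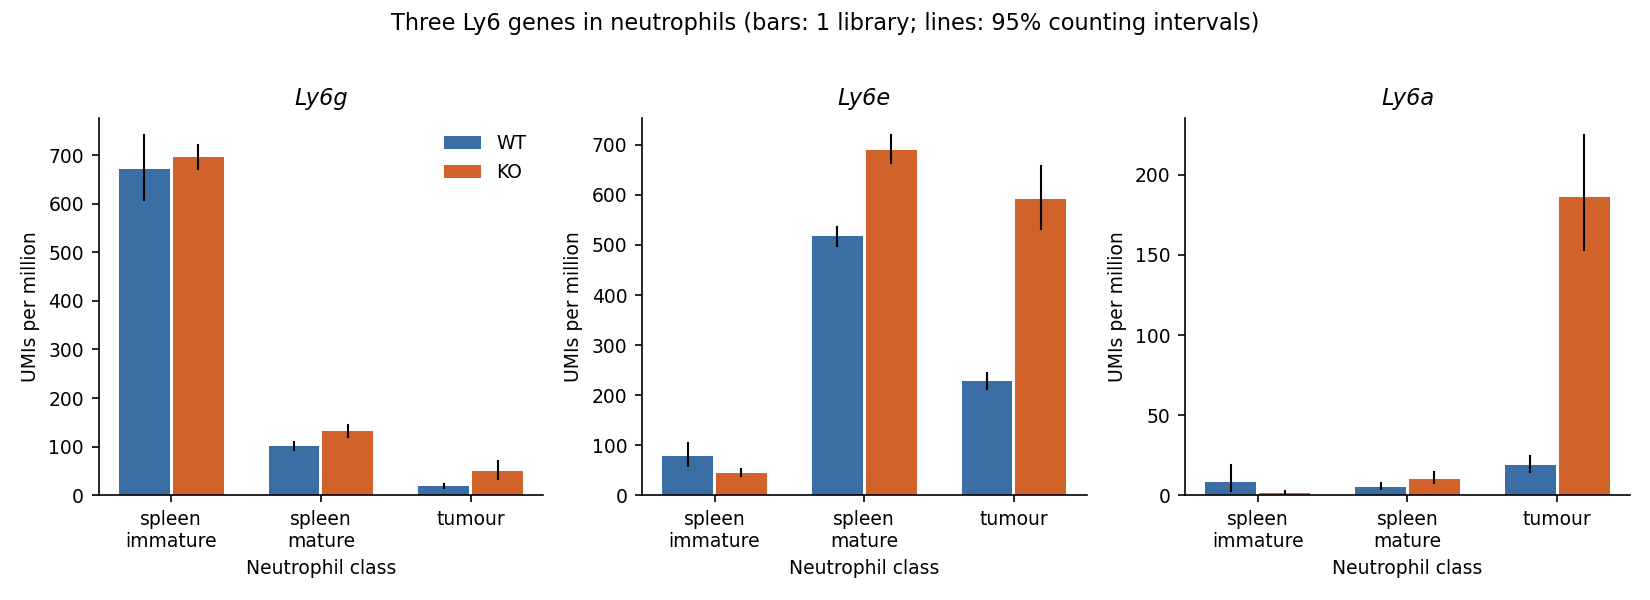
Levels of Ly6g, Ly6e and Ly6a, in CPM, in spleen immature, spleen mature and tumour neutrophils; bars are single WT (blue) and KO (orange) libraries and lines 95% counting intervals. Ly6g is highest in immature cells (672 and 696), Ly6e is lowest there (78.7 and 44.9), and Ly6a is above 100 only in KO tumour neutrophils (186). The immature bars rest on 51 WT and 346 KO cells.

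Ly6d, which marks B cell commitment of lymphoid progenitors and is shared by plasmacytoid dendritic cells, was high in these classes and plasma cells. Plasmacytoid dendritic cells of the tumour had 3362 CPM in WT and 2579 in KO (-0.38 [-0.45, -0.31]), tumour B cells 1353 and 2023 CPM (0.58 [0.46, 0.70]) and spleen B cells 994 and 1308 CPM (0.40 [0.30, 0.49]), none past the limit. Spleen plasma cells, too few in WT to be compared, had 329 CPM in WT and 265 in KO. In the remaining compared classes Ly6d was at 16.5 CPM or less. In tumour macrophages, a class that should lack it, 1.73% of WT and 2.33% of KO cells had a Ly6d UMI.

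The 3 higher and 1 lower spleen calls of Ly6d all stood in such low classes. Type 2 dendritic cells had 3 WT and 24 KO UMIs, classical monocytes 15 and 15, neutrophils 9 and 13, and non-classical monocytes 20 and 3. In type 2 dendritic cells the 7 B cell markers summed to 33.7 CPM in WT and 46.8 in KO and the 7 plasmacytoid dendritic markers to 435 and 631 CPM, with 2 of the latter at 0 in WT; their part was not tested. With the doublets kept the ratio of type 2 dendritic cells was 0.42, and with equal weight for each cell that of non-classical monocytes was -0.49. These 4 calls count among the 16 of the spleen.

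Several WT levels differed between organs, where the sort, the tissue and the library all change together and cannot be told apart. Type 2 dendritic cells had 26.5 CPM of Ly6a in spleen and 1139.7 in tumour (log2 tumour over spleen 5.43), and 209 and 53.9 CPM of Ly6c2 (-1.95). Both clusters were led by Cd209a and MHC class II genes; Ifitm1, Ccnd1, Mgl2 and Cxcl9 were among the top genes only of the tumour one. Classical monocytes had 5.72 and 45.7 CPM of Ly6a (3.00) but similar Ly6c2 (993 and 798 CPM, -0.32) and Ly6e (1696 and 1553 CPM, -0.13). NK cells had 573 and 198 CPM of Ly6c2 (-1.53), and neutrophils 101 and 19.1 CPM of Ly6g (-2.41) and 517 and 228 CPM of Ly6e (-1.18). B cells had less Ly6a in the tumour, 653 and 397 CPM (-0.72).

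A further 4 gene lists were read beside the family in tumour mononuclear phagocytes, where 11% of 12157 genes were higher by the same limit and 13.8% lower; the median log2 ratio of all of them was -0.01. Of 20 genes of the interferon gamma response, 19 were higher and 0 lower, with a median of 1.92. The largest were Gbp4 (2.80), Gbp6 (2.51), Gbp2 (2.50) and Gbp5 (2.45), guanylate-binding proteins of cell-intrinsic defence, and the smallest Psmb9 (1.19), an immunoproteasome subunit, and Cd274 (0.33), which encodes the checkpoint ligand PD-L1. Of 24 measured type I interferon response genes, 20 were higher and 0 lower, with a median of 1.05, from Ifi44 (2.29), Ifi47 (2.07), Oas3 (1.73) and Zbp1 (1.67) to Cmpk2 (0.19) and Rsad2 (-0.10). Ly6i, at 2.58, lay between Gbp4 and Gbp6, and Ly6a, at 2.44, just under Gbp5. That interferon genes are higher in these cells was known when the lists were drawn up, so their counts are no independent support.

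Genes that build and attach the GPI anchor were mostly within the limit: of 28 measured genes 1 was higher and 1 lower, with a median of 0.04. Pgap2 (0.76), which remodels the lipid of the anchor, Mppe1 (0.56), Pgap1 (0.50) and Pigo (0.41) had the largest ratios, and Pigg (-0.49) and Piga (-0.71), part of the enzyme that starts anchor synthesis, the smallest.

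Of 33 other genes of the Ly6 and uPAR family, 8 had no UMI in any library and 10 had at least 20 over the 4 libraries. Of these, 4 were measured in tumour mononuclear phagocytes. Plaur, the urokinase receptor, stood at 232 CPM in WT and 177 in KO (-0.39), Bambi, a decoy receptor of the TGF-beta family, at 5.28 and 12.4 CPM (1.23), Lynx1 at 0.553 and 1.401 CPM (1.34) on 11 and 19 UMIs, and Cd59a, a complement inhibitor, at 1.01 and 0.221 CPM (-2.19) on 20 and 3 UMIs. Thus 2 were higher and 1 lower. Plaur was lower in KO tumour neutrophils, 549 and 249 CPM (-1.14), where Ly6a, Ly6i, Ly6e and Ly6g were higher and Ly6c2 and Ly6d within the limit. Lynx1, the coding gene before Ly6d on the chromosome, stood in tumour B cells at 31.5 CPM in WT and 23.7 in KO. Ly6f, which lies beyond Ly6g on the chromosome, had 2 UMIs in all libraries together.

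In tumour classes other than phagocytes the interferon gamma list had medians from 0.44 in migratory and plasmacytoid dendritic cells to 3.02 in neutrophils, where 17 of 18 measured genes were higher against the 34.5% of all genes. In migratory dendritic cells, the class in which Ly6a and Ly6e had their lowest ratios, 5 of 19 interferon gamma genes were higher and 1 lower, and 3 of 20 type I genes higher and 9 lower, with a median of -0.48, against 11% and 10.4% of all genes. In the spleen classical monocytes the medians were 0.34 and 0.55 for the 2 lists.

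The genes most like each member were found by Pearson's r of log2(CPM + 1) over the 49 class sums of at least 50 cells among genes reaching 50 CPM. The sums of 1 library share its depth and its free RNA, and genotypes share their classes, so r is a description. Ly6a was most like H2-T22 (0.76), Cd69 (0.75) and Iigp1 (0.75). Ly6i was most like Ifitm3 (0.88), Ifi204 (0.85) and Gm36161 (0.85). Ly6c2 had no close match, with Notch1 at 0.71, Gas7 at 0.62 and Sidt2 at 0.61. Ly6c1 went with Nsg2 (0.86), Tdrp (0.83) and Cd40lg (0.79), and Ly6d with Iglc3 (0.96), Mzb1 (0.94) and Gm30211 (0.92). Ly6e was most like Itgb7 (0.82), Camk1d (0.81) and 9930111J21Rik2 (0.80), and Ly6g like Slco4c1 (0.96), Ceacam10 (0.96) and Lin28a (0.95).

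Among the members themselves no pair was as close, but the genes above were picked as the highest of all those compared, so they are no fair yardstick. The highest r was 0.49, for Ly6a and Ly6e, followed by 0.46 for Ly6a and Ly6d, which meet in B cells and plasmacytoid dendritic cells. The adjacent pairs gave 0.16 for Ly6e and Ly6i, -0.07 for Ly6a and Ly6i, 0.34 for Ly6a and Ly6c1, 0.33 for Ly6c1 and Ly6c2 and 0.13 for Ly6c2 and Ly6g. Ly6a and Ly6i thus had unlike levels over the classes, although both were higher in KO in macrophages, monocytes, neutrophils and type 2 dendritic cells of the tumour.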

How the data were processed

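Single cell 3′ RNA libraries (10x Chromium v3.1) were deposited as raw UMI counts per gene and cell barcode. Cell Ranger 3.1 and Seurat 3.1 and 3.1.4 with builds mm10 and GRCm38 are named in the submitters' processing notes, while Cell Ranger 6.0.0 stands in the deposited count matrices per the file headers; which version made the counts was not settled. The design text gives 3 mice per pool, and the extract protocol a range that begins at that number.

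Cells with at least 200 genes and 500 UMIs and at most 10% mitochondrial UMIs were kept, and simulated-doublet scores removed 0.8% of cells per 1000 barcodes. The 2000 most variable genes, without the Ly6 and interferon lists, gave 30 components, 15 neighbours and Leiden clusters (resolution 1.0; leidenalg 0.10.2, igraph 0.11.9, scipy 1.17.1). Clusters were named from marker lists. Raw counts were summed per class and library, and ratios given with exact 95% intervals for counting error. A pair was called at 1.5-fold with at least 20 UMIs over both libraries; at 0, 3 counts set the limit. On simulated data, 195 of 195 measured genes altered 4-fold were called, and 4.54% of unaltered genes. The simulated counts held counting error only, without variation among mice or in the mix of cells, and no smaller change was tried. So 4.54% is no rate of false calls for the real libraries. The members, lists, T subcluster limits and motifs were chosen with earlier results of these data known. Named were all members, the 3 genes most like each, the 4 largest and 2 smallest of each list, and other family genes with 20 UMIs in phagocytes or near a member on the chromosome.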

Additional observations from a re-analysis of the deposited data

How the results depend on the processing

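No paired analysis was possible because each organ and genotype has 1 pooled library; for the same reason no replicate could be left out. The counts of called pairs moved by over 1.5 times as follows, where the number of pairs measured also changed. Tumour pairs higher in KO numbered 38 of 58 (23 of 48 as reported) under a gate on each cell's own markers. Tumour pairs lower in KO numbered 5 of 57 with a mitochondrial limit of 20%, 1 of 54 with doublets kept, 0 of 37 after thinning to 1000 UMIs and 11 of 73 without a minimum of UMIs. Spleen pairs higher in KO numbered 5 of 25 after thinning (12 of 44 as reported). Spleen pairs lower in KO numbered 2 of 38 at Leiden resolution 0.5, 2 of 39 at 2.0, 2 of 40 with Ly6 and interferon genes allowed in the clustering, 2 of 37 at the 20% limit, 2 of 44 with equal weight for each cell, 2 of 44 at 2-fold, 0 of 25 after thinning and 12 of 64 without a minimum. The log2 ratio of Ly6a in tumour mononuclear phagocytes was 2.03 under the gate, 1.94 at resolution 2.0, 1.76 with the Ly6 and interferon genes allowed, 2.29 after thinning, 2.34 with equal weight and 2.19 at the WT mix of clusters. The sign turned for Ly6g in tumour neutrophils under the gate (-0.19), for Ly6c2 in regulatory T cells under the gate (2.79) and with equal weight (0.0741), and for Ly6i in spleen type 2 dendritic cells with doublets kept (-0.0181). The cause was not tested. Another Leiden seed, chosen after seeing the data, left 88 values within their counting interval, moved 8, lost 0 calls and turned 0 signs. The gate moved 37 values, lost 3 calls and turned 2 signs, with 14 not measured. Thinning moved 38 and lost 4 calls, with 32 not measured. Of 47 called values, those of all mononuclear phagocytes together included, 15 lost their call in at least 1 setting. The 2-fold limit was not among these settings, and values no longer measured in a setting were not counted as lost. In 25 the call was lost or the value moved over 1.5-fold. Low counts of Ly6c1 and of Ly6d outside B cells and plasmacytoid dendritic cells limit what can be read from them.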
